A study of Mus musculus with 9 samples.

Results

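Hspa5, Ddit3, Atf4, Xbp1, Herpud1, Dnajb9, Trib3, Asns, Chac1 and Sdf2l1 are genes of the unfolded protein response and of the amino acid stress response. They are 10 of the 19505 genes named on the array. Each was found by its gene symbol in the platform annotation, and no filter on low values was applied, so all 10 were described on all 9 arrays. Ddit3 has 2 transcript clusters, the array's units of 1 gene model each, and the cluster with the higher mean over the 9 arrays stood for the gene.

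The arrays, of the Clariom S mouse design, carried RNA from white adipose tissue of males, with 3 mice and 3 arrays in each of 3 groups. The VE group was C57BL/6JHamSlc-ob/ob, a strain that carries the ob mutation of Lep and makes no working leptin, gavaged for 6 weeks with 100 mg/kg of VE, which is Vigna umbellata (rice bean) extract. The ob/ob vehicle group was the same strain given vehicle over the same 42 days. The wild type group was C57BL/6JHamSlc-+/+, non-obese, also given vehicle over 42 days. All mice were 6 weeks old when they were obtained and ate standard chow, and the fat depot was not stated. The ob mutation is carried from birth and in every cell, so the wild type comparisons set lifelong leptin deficiency and obesity together against lean fat.

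Proteins that fold badly in the endoplasmic reticulum (ER) are sensed by IRE1, PERK and ATF6 in its membrane. IRE1 splices the Xbp1 mRNA so that it encodes an active transcription factor, ATF6 is cut to release a factor that raises chaperones, and PERK phosphorylates the translation factor eIF2alpha, which favours translation of ATF4 and, through it, transcription of CHOP (Ddit3). Shortage of amino acids reaches the same ATF4 through the kinase GCN2, so Asns, Trib3 and Chac1 can be raised from either side. In obese adipose tissue this response has been studied in fat cells and in the macrophages that gather around them. The arrays measure mRNA only, give 1 value for all Xbp1 mRNA, spliced or not, and do not show the translation of ATF4.

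The tissue label was checked against marker genes before the members were compared. All 12 measured adipocyte markers lay above the array median on all 9 arrays. The mean over 15 macrophage markers was 12.60 to 13.02 in VE fat, 12.41 to 12.80 in ob/ob vehicle fat and 7.78, 8.09 and 9.24 on wild type arrays 1, 2 and 3, on the deposited log2 scale. Of these markers 13 were higher in VE than in wild type fat, and 13 were higher in ob/ob vehicle fat than in wild type (limma, adjusted p under 0.05). The mean over 14 epithelial markers was 4.55 to 5.004 in VE fat and 4.83 to 4.85 in ob/ob vehicle fat, against 9.80, 10.22 and 7.90 on wild type arrays 1, 2 and 3. Epithelial transcripts in the wild type arrays go beyond the labelled tissue, most of all on wild type arrays 1 and 2, and results against wild type are therefore also given without those arrays where that fit changed a call, and as counts otherwise. In that fit the lone wild type array is assumed to vary like the other groups. Of 11 measured plasma and B cell markers, 8 lay below the array median on all 9 arrays, as did 8 of 11 markers of pancreatic acinar cells, which are other rich sources of ER transcripts. In each of these lists 1 gene was higher in both ob/ob groups than in wild type (limma, adjusted p under 0.05). Sdc1 of the first list read 11.11 to 12.25 on the ob/ob arrays and 8.37 to 9.41 in wild type fat. Cela1 of the second read 6.50 to 7.27 and 5.65 to 5.81. In whole tissue, fewer cells of a type and less RNA per cell cannot be told apart, and the part of macrophage or epithelial RNA in the differences below was not tested.

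Xbp1 and Ddit3 were higher in the fat of VE-treated ob/ob mice than in wild type fat, 2.28-fold and 2.45-fold. The other members, and all members in the other comparisons, did not pass the test, which is an adjusted p under 0.05 by limma with Benjamini-Hochberg adjustment over 19572 clusters. Of all clusters tested between VE and wild type, 20.0% passed, 12.4% as higher and 7.58% as lower, so 2 of 10 members is close to the background. Without wild type arrays 1 and 2 the members called were 3 (Ddit3, Asns and Sdf2l1), with Xbp1 no longer among them, and after quantile normalization neither Xbp1 nor Ddit3 passed. For ob/ob vehicle against wild type 0 of 10 members passed by limma, where 14.1% of clusters passed, 9.02% as higher and 5.05% as lower. In that comparison 3 members (Ddit3, Xbp1 and Asns) had an unadjusted p under 0.05, as did 5555 of the 19572 clusters, so this count too is close to the background. Between VE and ob/ob vehicle 0 of 10 passed by limma, where 0.0255% of clusters passed, which was 5 clusters, all of them higher. There 1 member, Chac1, had an unadjusted p under 0.05, as did 893 of the 19572 clusters.

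Separation was also counted on the arrays themselves. Between VE and wild type, Xbp1 and Ddit3 lay higher on every VE array and Asns lay lower, which is 3 of 10 members beside 37.2% of all clusters without overlap. For ob/ob vehicle against wild type, Xbp1 lay higher and Asns lower on every array, 2 of 10 members beside 28.9% of all clusters. Between VE and ob/ob vehicle, Xbp1, Herpud1 and Chac1 lay higher on every VE array, 3 of 10 members beside 12.6% of all clusters. The moderated F test of limma over the 3 groups called Xbp1 alone (adjusted p = 0.0355), which is 1 of 10 members where 15.7% of clusters passed.

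**Figure D1:**
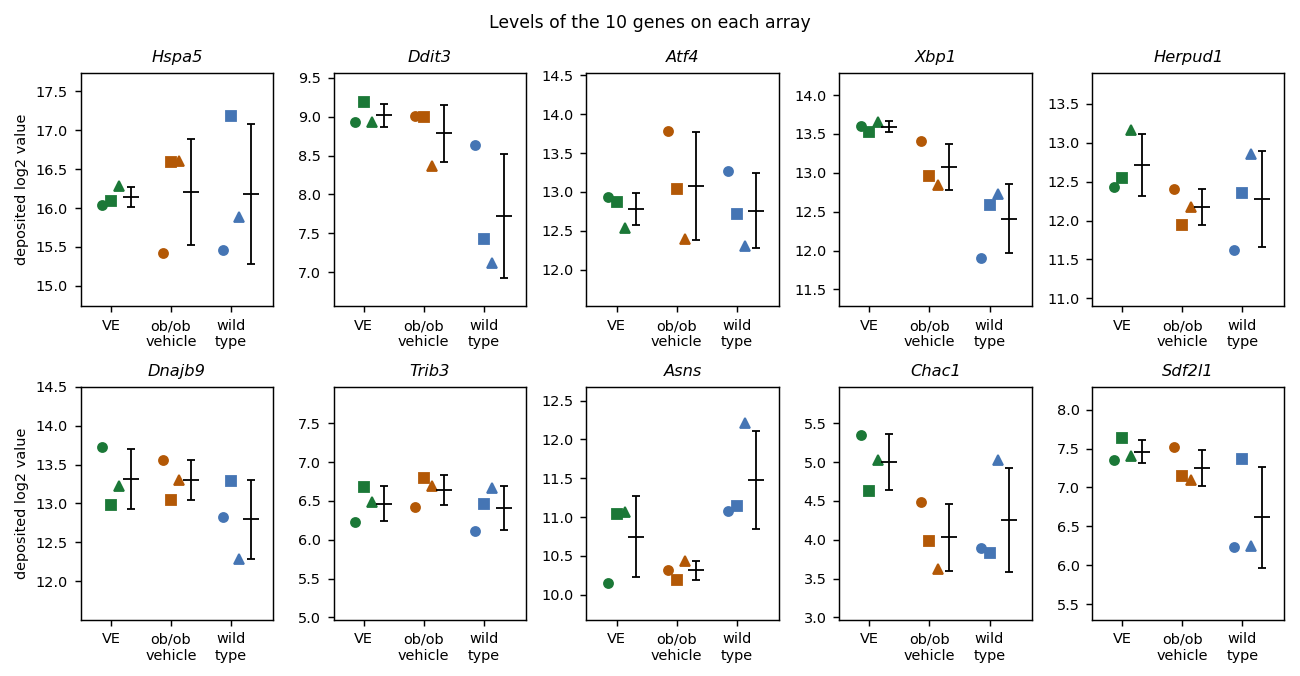
Deposited log2 value (vertical axis, the same span in each panel) of the 10 genes on the 9 arrays, by group from left to right VE-treated ob/ob, ob/ob vehicle and wild type; circle, square and triangle are arrays 1, 2 and 3, and the black mark is the group mean with its SD. The VE values of Xbp1 (13.52 to 13.66) lie above all ob/ob vehicle values (12.85 to 13.41) and all wild type values (11.90 to 12.73), while most other genes overlap.

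Xbp1, the transcription factor that IRE1 activates and that drives genes of ER folding and secretion, was the member whose 3 groups separated fully. It read 13.60, 13.52 and 13.66 in VE fat, 13.41, 12.96 and 12.85 in ob/ob vehicle fat and 11.90, 12.59 and 12.73 in wild type fat. Every VE array was above every ob/ob vehicle array, and every ob/ob vehicle array was above every wild type array, with wild type array 1 the lowest. The VE arrays were also close together, with an SD of 0.07, and 5.88% of all clusters had a VE SD no larger.

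Xbp1 was higher in VE than in wild type fat by 1.19 ± 0.27 (log2, SE, n = 3 per group; limma adjusted p = 0.0134). The difference was 0.67 ± 0.27 between ob/ob vehicle and wild type (limma adjusted p = 0.138) and 0.52 ± 0.27 between VE and ob/ob vehicle (95% interval -0.09 to 1.13). The VE against wild type call was kept with each array left out in turn (limma adjusted p 0.00813 to 0.0475). It ended after quantile normalization (0.66; limma adjusted p = 0.0925) and without wild type arrays 1 and 2 (0.86; limma adjusted p = 0.107). Brightness moved along with these differences: the brightest 30% of clusters, 5870 in number and 7 of the members among them, had a median difference of 0.42 between VE and wild type and 0.30 between ob/ob vehicle and wild type as deposited, against 0.03 and 0.02 after quantile normalization. Over the 10 members the median difference between VE and wild type was 0.48 as deposited and 0.06 after quantile normalization, and between ob/ob vehicle and wild type it was 0.27 and 0.02. The part of that brightness shift in the Xbp1 difference was not tested.

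Hspa5 encodes BiP, the main chaperone of the ER lumen, and its mRNA is the classical readout of the unfolded protein response. Its promoter holds the ER stress response element that ATF6 and XBP1 are known to bind, which is shown here because the gene is the pathway's reference target. The element was searched as CCAAT, any 9 bases, then CCACG, on both strands of the 250 bases before the gene start in RefSeq's promoters for GRCm38.p6, and capitals mark the match. It occurs in 0.113% of 32851 promoters and, among the 10 members, in Hspa5 only, 65 to 47 bases before the start, at chr2:34771995-34772073 on the plus strand.
Hspa5: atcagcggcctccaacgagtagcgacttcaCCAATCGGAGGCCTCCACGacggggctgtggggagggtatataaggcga
Hspa5 read 16.04, 16.09 and 16.29 in VE fat, 15.42, 16.59 and 16.61 in ob/ob vehicle fat and 15.46, 17.19 and 15.89 in wild type fat. The VE arrays lay inside the range of both other groups, and wild type array 2 was the highest of all. The difference was -0.04 ± 0.46 between VE and wild type (95% interval -1.05 to 0.97), 0.03 ± 0.46 between ob/ob vehicle and wild type (-0.99 to 1.04) and -0.07 ± 0.46 between VE and ob/ob vehicle (-1.08 to 0.95). As a fold, the interval between VE and wild type runs from 0.481 to 1.96, so 3 arrays a group cannot show that BiP mRNA was alike.

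Herpud1 encodes Herp, an ER membrane protein that helps pass misfolded proteins to degradation. Its promoter carries the second ER stress element, searched as ATTGG, any 1 base, then CCACG, a motif added after the data had been seen. That motif lies in 0.0304% of the 32851 promoters and in Herpud1 alone among the members, 52 to 42 bases before the start, at chr8:94386347-94386417 on the plus strand, with the match in capitals. The unfolded protein response element TGACGTGG is in 0.563% of promoters and was found in no member's window, which says only that these letters are not there.
Herpud1: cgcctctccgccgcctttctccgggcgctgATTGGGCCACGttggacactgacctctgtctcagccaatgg
Herpud1 read 12.43, 12.55 and 13.17 in VE fat, 12.41, 11.94 and 12.17 in ob/ob vehicle fat and 11.62, 12.36 and 12.85 in wild type fat. All VE arrays were above all ob/ob vehicle arrays, narrowly, and the wild type arrays spanned nearly the whole range. The difference between VE and ob/ob vehicle was 0.54 ± 0.34 (95% interval -0.21 to 1.30), and it was 0.44 ± 0.34 between VE and wild type and -0.10 ± 0.34 between ob/ob vehicle and wild type, none of which passed.

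Sdf2l1 and Dnajb9 encode partners of BiP in the ER lumen, Dnajb9 (ERdj4) being a co-chaperone of the J domain family. Sdf2l1 read 7.35, 7.63 and 7.40 in VE fat, 7.52, 7.15 and 7.09 in ob/ob vehicle fat and 6.23, 7.36 and 6.25 in wild type fat. Wild type arrays 1 and 3 were the lowest of the 9, and wild type array 2 lay among the ob/ob arrays. The difference was 0.85 ± 0.32 between VE and wild type (limma adjusted p = 0.0892) and 0.64 ± 0.32 between ob/ob vehicle and wild type (limma adjusted p = 0.222). Both passed with wild type array 2 left out, at 1.22 (limma adjusted p = 0.0102) and 1.01 (limma adjusted p = 0.0273), so this array decides the call. Without wild type arrays 1 and 2 the VE difference passed (1.21; limma adjusted p = 0.0309) and the ob/ob vehicle difference did not (1.003; limma adjusted p = 0.0728). Dnajb9 read 13.73, 12.98 and 13.23 in VE fat, 13.56, 13.05 and 13.30 in ob/ob vehicle fat and 12.82, 13.29 and 12.28 in wild type fat. Its groups overlapped, with differences of 0.52 ± 0.31 between VE and wild type, 0.51 ± 0.31 between ob/ob vehicle and wild type and 0.01 ± 0.31 between VE and ob/ob vehicle (95% interval -0.69 to 0.71).

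Ddit3 encodes CHOP, the transcription factor induced downstream of ATF4 that is linked to cell death in lasting stress. It read 8.93, 9.19 and 8.93 in VE fat, 9.01, 8.99 and 8.36 in ob/ob vehicle fat and 8.63, 7.43 and 7.12 in wild type fat. All VE arrays were above all wild type arrays, while ob/ob vehicle array 3 lay below wild type array 1. Ddit3 was higher in VE than in wild type fat by 1.29 ± 0.38 (log2, SE, n = 3 per group; limma adjusted p = 0.0367). Between ob/ob vehicle and wild type the difference was 1.06 ± 0.38 (limma adjusted p = 0.0929), and between VE and ob/ob vehicle it was 0.23 ± 0.38 (95% interval -0.61 to 1.07).

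With each array left out in turn, the Ddit3 difference between VE and wild type ran from 0.99 to 1.74. The call lay near the threshold. It ended with VE array 1, 2 or 3, ob/ob vehicle array 2, or wild type array 2 or 3 left out (limma adjusted p 0.0549 to 0.115), while without wild type arrays 1 and 2 the difference was 1.90 (limma adjusted p = 0.00641). Between ob/ob vehicle and wild type Ddit3 passed only with wild type array 1 left out among the fits with 1 array fewer, at 1.51 (limma adjusted p = 0.00827), and without wild type arrays 1 and 2, at 1.67 (limma adjusted p = 0.0133). The second Ddit3 cluster, which the array design does not place on the genome, read 8.49, 8.45 and 8.09 in VE fat, 8.97, 8.32 and 8.01 in ob/ob vehicle fat and 8.17, 7.42 and 8.20 in wild type fat. Its groups overlapped and its difference between VE and wild type was 0.41 ± 0.32 (limma adjusted p = 0.388), so the gene's 2 clusters did not give the same call.

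Atf4, the transcription factor at which ER stress and amino acid shortage meet, read 12.93, 12.87 and 12.54 in VE fat, 13.78, 13.04 and 12.39 in ob/ob vehicle fat and 13.27, 12.71 and 12.30 in wild type fat. The 3 groups overlapped, and the highest and the second lowest value both came from ob/ob vehicle. The difference was 0.02 ± 0.37 between VE and wild type, 0.31 ± 0.37 between ob/ob vehicle and wild type and -0.29 ± 0.37 between VE and ob/ob vehicle (95% interval -1.12 to 0.54). Trib3, a pseudokinase induced by ATF4 and CHOP that can inhibit AKT, read 6.23, 6.68 and 6.48 in VE fat, 6.42, 6.80 and 6.69 in ob/ob vehicle fat and 6.11, 6.46 and 6.67 in wild type fat. Its groups overlapped, and its largest difference in size was 0.22 ± 0.24, between ob/ob vehicle and wild type (95% interval -0.31 to 0.76).

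Chac1 encodes an enzyme that breaks down glutathione, and Asns encodes asparagine synthetase, which makes asparagine from aspartate. Both are textbook targets of ATF4, and their promoters are shown because each holds the C/EBP-ATF response element, the composite site through which ATF4 acts. The element was searched as TGATGNAA on both strands, where N is any base. It lies in 3.45% of the 32851 promoters and in 3 members, Chac1, Asns and Herpud1. Capitals mark the match, which reads along the gene in Asns and on the opposite strand in Chac1 and Herpud1, so that the capitals there are the reverse complement of the motif. The windows are chr2:119351019-119351086 (plus strand) for Chac1, chr6:7693210-7693262 (minus strand) for Asns and chr8:94386287-94386354 (plus strand) for Herpud1, and the matches lie 193 to 186, 23 to 16 and 112 to 105 bases before the gene starts in that order.
Chac1: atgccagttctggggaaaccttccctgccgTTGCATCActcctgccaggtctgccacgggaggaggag
Asns: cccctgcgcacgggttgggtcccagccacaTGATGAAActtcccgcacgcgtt
Herpud1: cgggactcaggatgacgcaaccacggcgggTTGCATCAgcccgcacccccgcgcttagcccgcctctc

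Asns read 10.15, 11.04 and 11.06 in VE fat, 10.32, 10.19 and 10.43 in ob/ob vehicle fat and 11.08, 11.14 and 12.21 in wild type fat. Every wild type array was above every ob/ob array of both groups, with VE arrays 2 and 3 just below wild type array 1 and wild type array 3 far above the rest. The difference was -0.73 ± 0.36 between VE and wild type (limma adjusted p = 0.182), -1.16 ± 0.36 between ob/ob vehicle and wild type (limma adjusted p = 0.0567) and 0.44 ± 0.36 between VE and ob/ob vehicle (95% interval -0.36 to 1.23). Between ob/ob vehicle and wild type it lay just outside the threshold and passed with VE array 1 left out (limma adjusted p = 0.0479), after quantile normalization (-1.46; limma adjusted p = 0.0255) and without wild type arrays 1 and 2 (-1.90; limma adjusted p = 0.0133). Without those 2 arrays the difference between VE and wild type passed too (-1.46; limma adjusted p = 0.0372).

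Chac1 read 5.35, 4.63 and 5.02 in VE fat, 4.48, 3.99 and 3.62 in ob/ob vehicle fat and 3.90, 3.83 and 5.02 in wild type fat. All VE arrays were above all ob/ob vehicle arrays, and wild type array 3 equalled VE array 3. All 9 values lay below the array median, a range in which no detection call was used here. The difference between VE and ob/ob vehicle was 0.97 ± 0.37 (95% interval 0.15 to 1.79), the largest of the 10 members in that comparison, and did not pass (limma adjusted p = 0.99). It was 0.75 ± 0.37 between VE and wild type (limma adjusted p = 0.184), which passed with wild type array 3 left out (1.14; limma adjusted p = 0.0282), and -0.22 ± 0.37 between ob/ob vehicle and wild type.

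**Figure D2:**
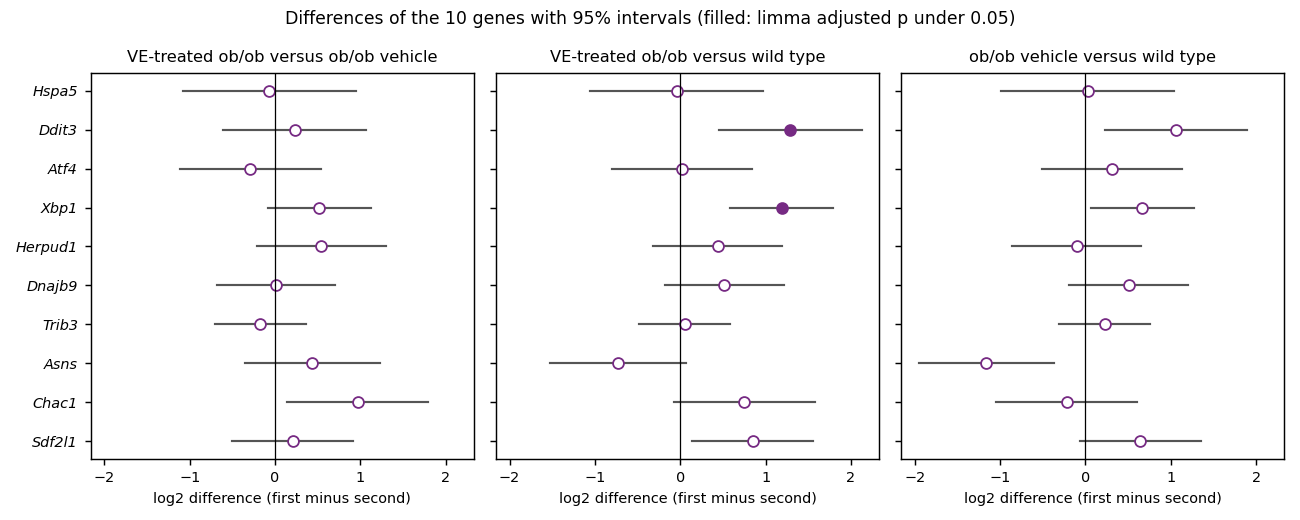
Log2 difference (horizontal axis, the group named earlier minus the other) with its 95% interval for the 10 genes, in panels from left to right for VE against ob/ob vehicle, VE against wild type and ob/ob vehicle against wild type; filled points passed limma's adjusted p under 0.05. Only Ddit3 (1.29) and Xbp1 (1.19) in the middle panel are filled, and Asns is the gene furthest to the left in both wild type comparisons.

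The other genes of the pathway were taken from 10 lists with 144 measured genes besides the members. Between VE and wild type 24 were higher and 5 lower (limma, adjusted p under 0.05), which is 16.7% and 3.47% of them, beside 12.4% and 7.58% of all clusters. Between ob/ob vehicle and wild type 10 were higher and 4 lower, 6.94% and 2.78% beside 9.02% and 5.05%. Between VE and ob/ob vehicle 1 was higher and 0 were lower. That 1 gene is 0.694% of them, beside 0.0255% of all clusters and 0.0681% of the brightest 30% called higher. The pathway genes were mostly bright, with 106 of the 144 among the brightest 30% of clusters, of which 26.2% were called higher in VE and 19.4% in ob/ob vehicle fat against wild type. The pathway's share of higher genes in VE thus lay between that of all clusters and that of the brightest, and its share in ob/ob vehicle fat lay below both.

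The median difference of the 144 genes was 0.27 between VE and wild type and 0.14 between ob/ob vehicle and wild type, against -0.07 and -0.04 over all clusters and 0.42 and 0.30 over the brightest 30%. Between VE and ob/ob vehicle it was 0.11, against -0.02 over all clusters and 0.06 over the brightest. After quantile normalization the direction of the counts did not hold: 9 were higher and 11 lower in VE, and 8 higher and 8 lower in ob/ob vehicle fat, than in wild type, with medians of -0.05 and -0.11. Without wild type arrays 1 and 2 the counts were 11 higher and 1 lower in VE and 7 higher and 0 lower in ob/ob vehicle fat. In that fit the lists of ATF4 and CHOP regulators and of cytosolic heat shock genes each had fewer called genes than with all 9 arrays. Of the called genes that the naming rule picked, 10 of 23 between VE and wild type and 6 of 12 between ob/ob vehicle and wild type stayed called with each array left out in turn. Without wild type arrays 1 and 2 together, 12 of the 23 and 6 of the 12 stayed called. After quantile normalization it was 12 of the 23 and 10 of the 12.

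Among 11 measured ER stress sensors and eIF2alpha kinases, 2 were higher in VE than in wild type fat and 1 was higher in ob/ob vehicle fat than in wild type. That is 18.2% and 9.09% of the list, beside 12.4% and 9.02% of all clusters called higher. Atf6, the sensor cut in the Golgi, read 12.63, 12.74 and 12.62 in VE fat, 12.36, 12.94 and 12.51 in ob/ob vehicle fat and 11.70, 11.99 and 11.40 in wild type fat. All 6 ob/ob arrays were above all wild type arrays. It was higher by 0.97 ± 0.24 in VE (limma adjusted p = 0.0206) and by 0.91 ± 0.24 in ob/ob vehicle fat (limma adjusted p = 0.034) than in wild type. The VE call ended with VE array 1, 2 or 3 left out, and the ob/ob vehicle call with any array left out but ob/ob vehicle array 1 and wild type array 2 (limma adjusted p 0.0546 to 0.133). Both calls ended after quantile normalization (0.50 in VE and 0.58 in ob/ob vehicle; limma adjusted p = 0.191 and 0.145), the ob/ob vehicle call also in a fit of the 2 groups alone (limma adjusted p = 0.0942), and both were kept without wild type arrays 1 and 2 (1.26 and 1.203). Ern1, which encodes IRE1alpha, and Eif2ak3, which encodes PERK, did not pass, with differences of -0.74 ± 0.35 and -0.41 ± 0.35 between VE and wild type.

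ER-associated degradation, which returns misfolded proteins to the cytosol for the proteasome, held 6 higher genes of 18 between VE and wild type, 2 between ob/ob vehicle and wild type, and 0 in the lower direction in both. That is 33.3% and 11.1% of the list, beside 12.4% and 9.02% higher over all clusters and 26.2% and 19.4% over the brightest 30%. The VE count fell to 2 genes both after quantile normalization and without wild type arrays 1 and 2, while the ob/ob vehicle count was 2 in both. Edem1, a lectin that marks glycoproteins for degradation and a known XBP1 target, read 12.94, 13.06 and 13.13 in VE fat, 12.85, 13.18 and 13.04 in ob/ob vehicle fat and 10.64, 11.17 and 11.37 in wild type fat. It was 3.95-fold higher in VE (1.98 ± 0.24; limma adjusted p = 0.00049) and 3.90-fold higher in ob/ob vehicle (1.96 ± 0.24; limma adjusted p = 0.000577) than in wild type. Ube2j1, a ubiquitin-conjugating enzyme of the ER membrane, read 12.70, 12.76 and 12.87 in VE fat, 13.00, 12.69 and 12.89 in ob/ob vehicle fat and 11.46, 11.55 and 11.61 in wild type fat, with differences of 1.24 ± 0.20 in VE and 1.32 ± 0.20 in ob/ob vehicle against wild type (limma adjusted p = 0.00242 and 0.00201). Both genes set all 6 ob/ob arrays apart from wild type and stayed called without wild type arrays 1 and 2, at 1.67 and 1.17 in VE and 1.65 and 1.25 in ob/ob vehicle.

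Of 20 measured ER chaperones and folding enzymes, 3 were higher in VE than in wild type fat, which is 15.0% beside 12.4% of all clusters. By limma 0 passed between ob/ob vehicle and wild type. There 4 had an unadjusted p under 0.05, as did 5555 of the 19572 clusters. Fkbp2, a prolyl isomerase of the ER, read 9.64, 9.33 and 10.04 in VE fat, 8.05, 7.30 and 7.59 in ob/ob vehicle fat and 7.29, 8.15 and 7.52 in wild type fat. Its VE arrays stood above all the others, while ob/ob vehicle and wild type overlapped. Fkbp2 was higher by 2.02 ± 0.31 in VE than in wild type (limma adjusted p = 0.00186), and the difference between VE and ob/ob vehicle was 2.02 ± 0.31 and did not pass (limma adjusted p = 0.0811). That second difference uses no wild type array. It passed in a fit of the 2 groups alone (limma adjusted p = 0.0429) and with weights per array (limma adjusted p = 0.0101), but not with any 1 array left out. P4hb, a protein disulfide isomerase, was higher in VE than in wild type by 1.30 ± 0.28 (limma adjusted p = 0.00958), which ended after quantile normalization.

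Among 24 genes of the translocon and the oligosaccharyltransferase, which thread and glycosylate new proteins, 3 were higher in VE than in wild type fat, 1 in ob/ob vehicle fat than in wild type and 1 in VE than in ob/ob vehicle fat. In that order this is 12.5%, 4.17% and 4.17% of the list, beside 12.4%, 9.02% and 0.0255% of all clusters. Dad1, a subunit of the oligosaccharyltransferase, was in all 3 counts. It read 17.35, 17.54 and 17.33 in VE fat, 15.27, 14.88 and 14.51 in ob/ob vehicle fat and 13.68, 13.37 and 13.25 in wild type fat. The 3 groups did not overlap, and Dad1 was higher by 3.97 ± 0.25 in VE and by 1.45 ± 0.25 in ob/ob vehicle fat than in wild type (limma adjusted p = 1.79e-05 and 0.00398). Dad1 was also higher in VE than in ob/ob vehicle fat by 2.52 ± 0.25 (limma adjusted p = 0.0147), the sole called gene of the 144 in that comparison. That last call ended with VE array 1, 2 or 3 or ob/ob vehicle array 2 or 3 left out (limma adjusted p 0.0893 to 0.184), with the replicate block (limma adjusted p = 0.0546) and after quantile normalization (limma adjusted p = 0.055).

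**Figure D3:**
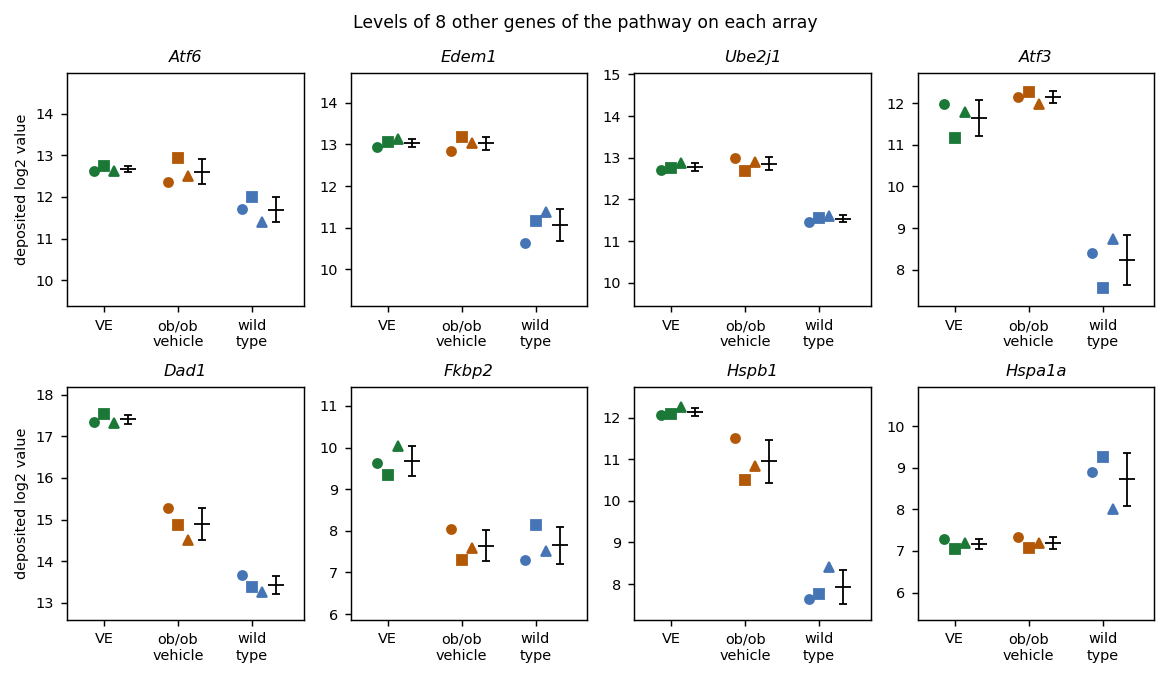
Deposited log2 value (vertical axis, the same span in each panel) of 8 other genes of the pathway on the 9 arrays, by group from left to right VE-treated ob/ob, ob/ob vehicle and wild type; circle, square and triangle are arrays 1, 2 and 3, and the black mark is the group mean with its SD. Atf3, Edem1, Ube2j1 and Hspb1 set all ob/ob arrays above wild type, Hspa1a sets them below, and Dad1 and Fkbp2 are highest on the VE arrays.

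Of 16 genes in the list of ATF4 and CHOP regulators, 4 were higher and 1 lower in VE than in wild type fat. For ob/ob vehicle fat against wild type, 4 were higher and 0 lower. In VE that is 25.0% higher and 6.25% lower, beside 12.4% and 7.58% of all clusters. In ob/ob vehicle it is 25.0% higher and 0.00% lower, beside 9.02% and 5.05%. Atf3, a stress transcription factor of the ATF family that is also abundant in activated macrophages, read 11.97, 11.16 and 11.80 in VE fat, 12.15, 12.28 and 11.99 in ob/ob vehicle fat and 8.41, 7.56 and 8.74 in wild type fat. It was 10.6-fold higher in VE (3.41 ± 0.33; limma adjusted p = 0.000147) and 15.0-fold higher in ob/ob vehicle (3.90 ± 0.33; limma adjusted p = 6.83e-05) than in wild type, and macrophage markers differed along with it as given above. Without wild type arrays 1 and 2 the Atf3 differences were 2.90 and 3.40, and both stayed called. Tnfrsf10b, the death receptor that CHOP is known to raise, read 7.15, 6.14 and 6.50 in VE fat, 6.47, 6.16 and 6.17 in ob/ob vehicle fat and 5.37, 5.08 and 5.09 in wild type fat, and was higher by 1.42 ± 0.28 in VE than in wild type (limma adjusted p = 0.00664). Its ob/ob vehicle arrays also lay above all wild type arrays and overlapped with the VE arrays, so the higher level was not particular to VE. The stress hormone list had 1 lower gene of 4 (25.0%, beside 7.58% of all clusters), Vegfa, between VE and wild type (-1.26 ± 0.38; limma adjusted p = 0.0423), a call that ended with any array left out but wild type array 2.

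Amino acid synthesis, transport and loading onto tRNA are the side of the pathway that answers amino acid shortage. Of 11 genes of amino acid synthesis, 2 were higher in VE than in wild type fat, which is 18.2% beside 12.4% of all clusters. By limma 0 passed between ob/ob vehicle and wild type. There 4 had an unadjusted p under 0.05, as did 5555 of the 19572 clusters. Got1, the cytosolic aspartate transaminase, read 8.54, 8.47 and 9.98 in VE fat, 8.03, 8.36 and 8.11 in ob/ob vehicle fat and 7.58, 7.01 and 7.30 in wild type fat, and was higher in VE than in wild type by 1.70 ± 0.38 (limma adjusted p = 0.0124; 0.0662 without wild type arrays 1 and 2). Of 10 amino acid transporters, 1 was higher and 1 lower against wild type in VE, and likewise in ob/ob vehicle. Of all clusters, 12.4% were higher and 7.58% lower in VE, and 9.02% higher and 5.05% lower in ob/ob vehicle. With 1 of 10 each way, the transporters were close to that background. The higher transporter in both groups was Slc36a4 (1.94 ± 0.49 in VE and 2.11 ± 0.49 in ob/ob vehicle). The lower one in both groups was the glycine transporter Slc6a9 (-1.12 ± 0.29 and -1.09 ± 0.29). All 4 of these transporter calls ended without wild type arrays 1 and 2 (limma adjusted p 0.0879 to 0.293). The Slc36a4 calls also ended with VE array 1 or 2 left out in VE and ob/ob vehicle array 2 or 3 in ob/ob vehicle. The Slc6a9 calls ended with VE array 1 or 3 or wild type array 2 left out in VE, and with any of 6 arrays left out in ob/ob vehicle (VE 3, ob/ob vehicle 1, 2 and 3, wild type 1 and 2). Of 18 aminoacyl-tRNA synthetases, 1 was higher in VE than in wild type, Farsb (1.18 ± 0.32; limma adjusted p = 0.0265), which ended with VE array 1 or 2 or wild type array 1 left out, and after quantile normalization (limma adjusted p = 0.071). Without wild type arrays 1 and 2 Farsb was at 0.61 and no longer passed (limma adjusted p = 0.245). The 1 synthetase higher in VE is 5.56% of the list, beside 12.4% of all clusters. Among these synthetases 0 passed between ob/ob vehicle and wild type by limma, where 3 had an unadjusted p under 0.05, as did 5555 of the 19572 clusters.

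Cytosolic heat shock genes, the counterpart of the ER response outside that compartment, went in both directions. Of 12 measured, 2 were higher and 2 lower in VE than in wild type fat, and 1 was higher and 3 lower in ob/ob vehicle fat than in wild type. In VE that is 16.7% each way, beside 12.4% higher and 7.58% lower of all clusters. In ob/ob vehicle it is 8.33% higher and 25.0% lower, beside 9.02% and 5.05%. Hspb1, the small heat shock protein HSP27 of the human literature, read 12.06, 12.09 and 12.25 in VE fat, 11.51, 10.49 and 10.84 in ob/ob vehicle fat and 7.64, 7.76 and 8.40 in wild type fat. It was 18.4-fold higher in VE (4.20 ± 0.31; limma adjusted p = 3.08e-05) and 8.07-fold higher in ob/ob vehicle (3.01 ± 0.31; limma adjusted p = 0.000194) than in wild type. The inducible HSP70 gene Hspa1a went the other way, at 7.28, 7.05 and 7.19 in VE fat, 7.34, 7.06 and 7.19 in ob/ob vehicle fat and 8.90, 9.25 and 8.02 in wild type fat. It was lower by 1.55 in VE and by 1.53 in ob/ob vehicle fat than in wild type (differences of -1.55 ± 0.31 and -1.53 ± 0.31; limma adjusted p = 0.00662 and 0.00861), and both calls ended without wild type arrays 1 and 2 (-0.85 and -0.82). Hspa1b is a near-identical copy whose probes may share its signal, so the 2 genes may not count as separate results. Hspa1b was lower in ob/ob vehicle fat than in wild type (-2.04; limma adjusted p = 0.0373), a call that ended with any array left out but wild type array 3. Without wild type arrays 1 and 2 its difference was -0.56.

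**Figure D4:**
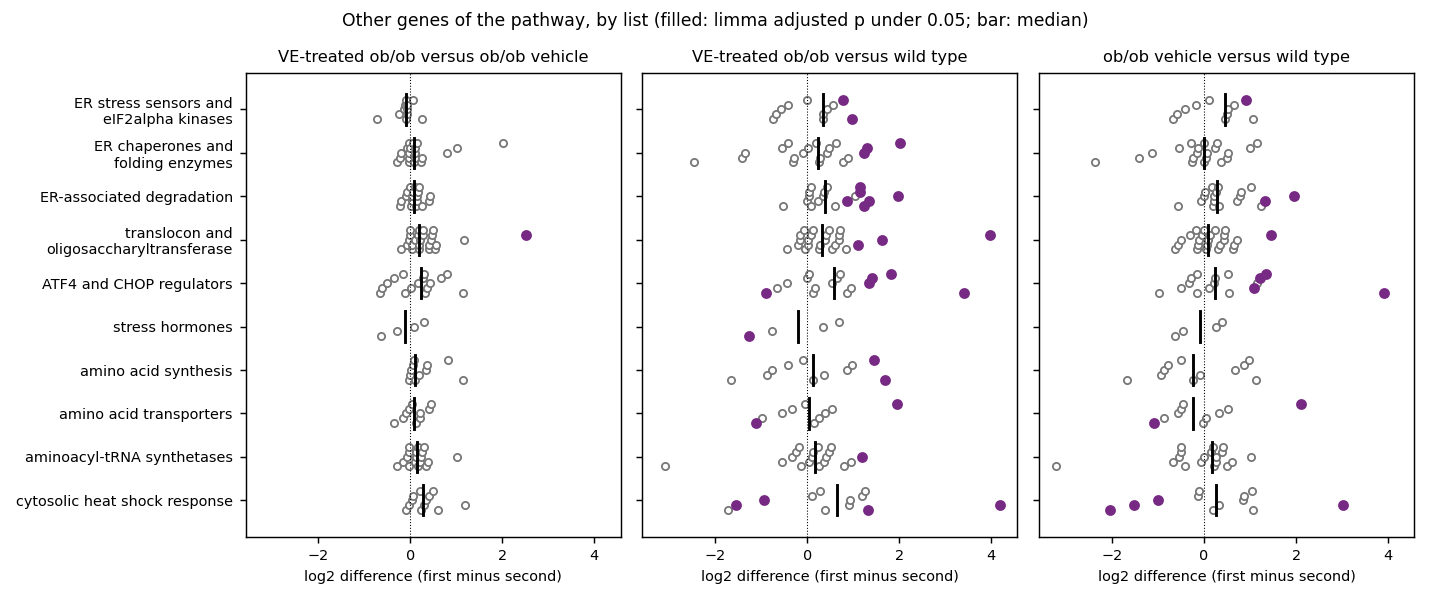
Log2 difference (horizontal axis, the group named earlier minus the other) of the other pathway genes by list (vertical axis), in panels from left to right for VE against ob/ob vehicle, VE against wild type and ob/ob vehicle against wild type; filled points passed limma's adjusted p under 0.05 and the bar is the list's median. Against ob/ob vehicle, Dad1 at 2.52 in VE is the sole filled point, while the wild type panels hold 24 and 10 filled points to the right of 0 and 5 and 4 to the left.

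The genes whose profile over the 9 arrays was most like that of Xbp1, each profile centred on its own mean, were Lztr1, Lsm1 and Ubxn6, with root mean square differences of 0.12, 0.13 and 0.14 log2 units. Ubxn6, for example, read 9.49, 9.66 and 9.92 in VE fat, 9.25, 9.20 and 8.93 in ob/ob vehicle fat and 7.88, 8.70 and 8.85 in wild type fat. As in Xbp1, its 3 groups did not overlap and wild type array 1 was the lowest. The 2 closer genes also had their lowest value on wild type array 1, but their groups overlapped. In Lztr1, VE array 2 (8.72) lay below ob/ob vehicle array 1 (8.93), and ob/ob vehicle array 3 (8.10) below wild type array 3 (8.24). In Lsm1, VE arrays 1 and 2 (8.52 and 8.54) lay below ob/ob vehicle array 1 (8.72). Likeness was taken over the 9 arrays only, among clusters outside the members.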

How the data were processed

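The deposited table holds log2 values of 22206 transcript clusters, which the authors normalized by SST-RMA in Transcriptome Analysis Console (4.0.2 per the series' design text, 4 per the submitters' processing notes). Values were used as deposited. Differences between whole arrays that this normalization left in place stay in the values, which the alternatives on normalization address. The genome build of the array design is not given in the sources used here. Of the clusters, 19572 carry 1 gene symbol in the platform annotation and were tested, and 2634 are unnamed here and were left out. Array medians were 6.11 to 6.26. An array has no depth of reads, so precision is limited by how many arrays there are.

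A linear model of the 3 group means was fitted to all 9 arrays (limma 3.58.1, R 4.3.3) with an empirical Bayes prior of 4.02 degrees of freedom. Benjamini-Hochberg adjustment ran over all named clusters of a comparison. Tests were two-sided, an SE is that of the log2 difference and an SD that of 3 arrays. The 2 comparisons with wild type share its arrays, and the 2 with ob/ob vehicle share theirs. The fit was tested on simulated data. The members and all lists were chosen with earlier results of these data known. The naming rule took all members, up to 3 called genes of each list and comparison by the size of the difference (or the 2 of smallest p where none was called), and the 3 clusters most like a member called by the F test. Other genes were named as sensors of the pathway after their values were seen (Ern1, Eif2ak3), or where a count turned on them.

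Replicate numbers were checked for pairing: same-numbered arrays of compared groups correlated at -0.06 to 0.18 in their deviations from the group means, so the numbers were not used as pairs. Promoters (250 bases before the start) were RefSeq's for GRCm38.p6, found for 10 of 10 members. Alternative fits changed the samples (2 groups alone, each array left out in turn, wild type arrays 1 and 2 left out), the model (replicate block, trended or robust prior, no prior, weights per array), the values (median centring, quantile normalization), the clusters (the dimmest 30% dropped, unnamed ones added) or the threshold (adjusted p under 0.1, or as the submitters set it, unadjusted p under 0.05 and fold over 1.1). The submitters' detection filter was not used here.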

Additional observations from a re-analysis of the deposited data

How the results depend on the processing

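Over the alternatives, 212 member values between VE and ob/ob vehicle, 187 between VE and wild type and 196 for ob/ob vehicle against wild type kept their direction and their side of the threshold, while 7, 15 and 11 turned direction. Many alternatives leave a difference itself unchanged: another prior, the replicate block, the 2 groups alone, other clusters or thresholds, and arrays left out of the group not compared. In those only the call could change, so the counts of kept values do not measure how stable the directions are. Of the 10 members, the count called for ob/ob vehicle against wild type (0) was 1 with the replicate block, after quantile normalization and with the dimmest 30% left out, 2 without wild type arrays 1 and 2 and at an adjusted p under 0.1, 3 at the submitters' threshold, and 0 to 1 with each array left out. Between VE and ob/ob vehicle (0) it was 1 at the submitters' threshold. Between VE and wild type (2) it was 1 in the fit of 2 groups and without empirical Bayes, 0 after quantile normalization, 3 without wild type arrays 1 and 2, at an adjusted p under 0.1 and at the submitters' threshold, and 1 to 2 with each array left out. By the F test (1) it was 0 with the replicate block and without empirical Bayes, 2 without wild type arrays 1 and 2 and at an adjusted p under 0.1, 3 at the submitters' threshold and 0 to 2 with each array left out.

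Only values that had not passed turned their direction. Between ob/ob vehicle and wild type these were Hspa5 (-0.40) and Atf4 (-0.088) after quantile normalization and Trib3 (-0.033) and the synthesis gene Shmt2 (0.03) without wild type arrays 1 and 2. For VE against ob/ob vehicle they were Dnajb9 (-0.11) after quantile normalization and Ddit3's second cluster (-0.09). Between VE and wild type they were Hspa5 (0.023) after median centring, Atf4 (-0.51) and Herpud1 (-0.035) after quantile normalization, and Hspa5 (0.25), Herpud1 (-0.13), Trib3 (-0.21) and Chac1 (-0.02) without wild type arrays 1 and 2. With each array left out, the values between ob/ob vehicle and wild type ran from -0.33 to 0.53 for Hspa5, -0.045 to 0.65 for Atf4, -0.43 to 0.18 for Herpud1 and -0.45 to 0.17 for Chac1. For VE against ob/ob vehicle they ran from -0.46 to 0.14 for Hspa5, -0.63 to 0.065 for Atf4 and -0.20 to 0.18 for Dnajb9. Between VE and wild type they ran from -0.40 to 0.47 for Hspa5, -0.21 to 0.28 for Atf4 and -0.10 to 0.18 for Trib3. The cause of these changes was not tested. The replicate block left the Xbp1 (limma adjusted p = 0.0293) and Ddit3 (limma adjusted p = 0.0313) calls between VE and wild type in place and added Asns between ob/ob vehicle and wild type (limma adjusted p = 0.0418). Among the named pathway genes it ended Dad1 between VE and ob/ob vehicle (limma adjusted p = 0.0546), Ero1b between VE and wild type (limma adjusted p = 0.0516) and Atf5 between ob/ob vehicle and wild type (limma adjusted p = 0.0581), but the numbers are not shown to pair the mice. With 3 arrays a group the SE of a member's difference was 0.24 to 0.46, and signal over background was not available without detection calls.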
